A study of Mus musculus with 9 samples.

Results

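A set of 10 genes linked to cellular senescence and to the arrest of the cell cycle was followed in the ageing mouse brain: Cdkn1a, Cdkn1b, Cdkn1c, Cdkn2a, Cdkn2b, Cdkn2c, Trp53, Mdm2, Ccnd1 and Lmnb1. The genes were listed by name, and all 10 were found among the 49315 gene rows of the count table. PolyA-selected RNA had been sequenced from whole brains of young mice (3 months, n = 5) and old mice (33 months, n = 4), which shared the C57BL/6J strain, the WT genotype and the male sex and received no treatment that the labels name. Each library came from the brain of an individual mouse. Old replicate 2 was not analysed here. In a whole brain, fewer cells of a type and less RNA per cell cannot be told apart.

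Senescence is a lasting exit from the cell cycle that is paired with a secretory programme. Cells enter it through the p53 protein, which induces the CDK inhibitor p21 (Cdkn1a), and through p16 (Cdkn2a), which blocks CDK4 and CDK6 and so keeps the retinoblastoma proteins active. Loss of lamin B1 (Lmnb1) from the nuclear envelope accompanies this state in cultured cells. Most neurons left the cell cycle during development, so in the adult brain dividing cells are mainly oligodendrocyte precursors, neural progenitors, microglia and cells of the vessels, and the same inhibitors also hold resting cells out of the cycle.

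Each library held between 14229259 and 21150439 counts. Levels are given as CPM, counts scaled to a common library size, after TMM scaling, and 18492 genes, among them 9 of the 10 members, had enough counts to be tested with edgeR's quasi-likelihood test, with p-values adjusted over all tested genes (Benjamini-Hochberg). The defining markers of neurons, astrocytes, oligodendrocytes, microglia and endothelial cells were present in every library. A pair of libraries stood apart. In young replicate 4, Itgax, a gene of reactive microglia, was at 9.71 CPM, when the remaining 4 young libraries had 0.0687 to 0.261 CPM and the old libraries 2.76 to 5.42 CPM. In old replicate 4, 16 of 20 proliferation genes had their highest level of the 9 libraries, and Mki67 had 157 counts there against 30 to 48 in the other 8. Results are therefore also given without these libraries.

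The regulatory sequence just upstream of the members that separated the ages in the higher direction is shown first, since each of these genes is read from more than 1 start. The sequences are those of RefSeq on GRCm38.p6, 5′ to 3′ on the gene's strand, with bases of the gene's own exons left out. Capitals mark any GC box (GGGCGG), any E2F motif (TTTCCCGC or TTTGGCGC) and any p53 response element (a pair of adjacent p53 half-sites over 20 bases with at most 1 mismatch), searched on both strands.
Cdkn1a, upstream start, chr17:29090729-29090975, plus strand: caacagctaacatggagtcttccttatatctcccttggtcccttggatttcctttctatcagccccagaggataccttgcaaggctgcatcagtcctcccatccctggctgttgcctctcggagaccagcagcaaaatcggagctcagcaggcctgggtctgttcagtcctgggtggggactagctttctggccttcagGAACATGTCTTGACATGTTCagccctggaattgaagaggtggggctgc
Cdkn1a, downstream start, chr17:29093519-29093768, plus strand: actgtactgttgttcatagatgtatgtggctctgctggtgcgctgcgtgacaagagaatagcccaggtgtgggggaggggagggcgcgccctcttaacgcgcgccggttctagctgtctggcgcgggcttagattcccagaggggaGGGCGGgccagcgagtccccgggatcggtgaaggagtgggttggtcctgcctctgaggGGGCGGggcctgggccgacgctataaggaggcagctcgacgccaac
Cdkn2a, upstream start (p19Arf transcript), chr4:89294654-89294869, minus strand: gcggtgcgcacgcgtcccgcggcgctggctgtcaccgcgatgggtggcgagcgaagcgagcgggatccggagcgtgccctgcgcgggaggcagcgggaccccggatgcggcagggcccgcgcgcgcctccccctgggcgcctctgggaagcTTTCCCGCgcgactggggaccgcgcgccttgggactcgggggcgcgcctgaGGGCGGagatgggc
Cdkn2a, intronic start (p16 transcript), chr4:89282193-89282442, minus strand: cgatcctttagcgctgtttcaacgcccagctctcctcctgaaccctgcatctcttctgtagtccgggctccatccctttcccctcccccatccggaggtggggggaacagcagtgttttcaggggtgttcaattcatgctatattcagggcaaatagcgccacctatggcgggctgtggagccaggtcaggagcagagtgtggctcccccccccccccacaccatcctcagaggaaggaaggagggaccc

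The window before the upstream start of Cdkn1a held a p53 element that ended 31 bases before that start. This element was found in 25 of 32851 promoter windows of 250 bases (0.0761%). The window before the downstream start lay inside a Cdkn1a intron and in an exon of AC167363.2, and held 2 GC boxes, a motif found in 32.7% of all windows. The window before the p19Arf start held 1 GC box and 1 E2F motif, the latter found in 1.3% of all windows, while none of the 3 motifs was found in the window before the p16 start. Lmnb1 was left out of the search for promoter windows. Among the other members, such windows were found for 7. Those of Cdkn2c overlapped its own exons and were left out, and those of Cdkn1b, Cdkn2b, Mdm2 and Trp53 held no p53 element and no E2F motif. A match of letters is a description of the sequence and not evidence that a factor bound there.

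Of the 9 members tested, 1 rose and 1 fell with age (adjusted p under 0.05). Among all tested genes, 2031 (11.0%) passed that threshold, 1126 of them higher (6.09%) and 905 lower (4.89%) in the old mice. The member that rose was Cdkn1a, and the member that fell was Lmnb1. No member passed when an absolute log2 fold change over 0.58 was also required, a rule met by 463 genes (2.5%); by edgeR's unadjusted p under 0.05 the count was also 0, as it was by DESeq2. Cdkn2a, the gene of p16 and p19Arf, had too few counts for this test and is described by its counts.

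**Figure D1:**
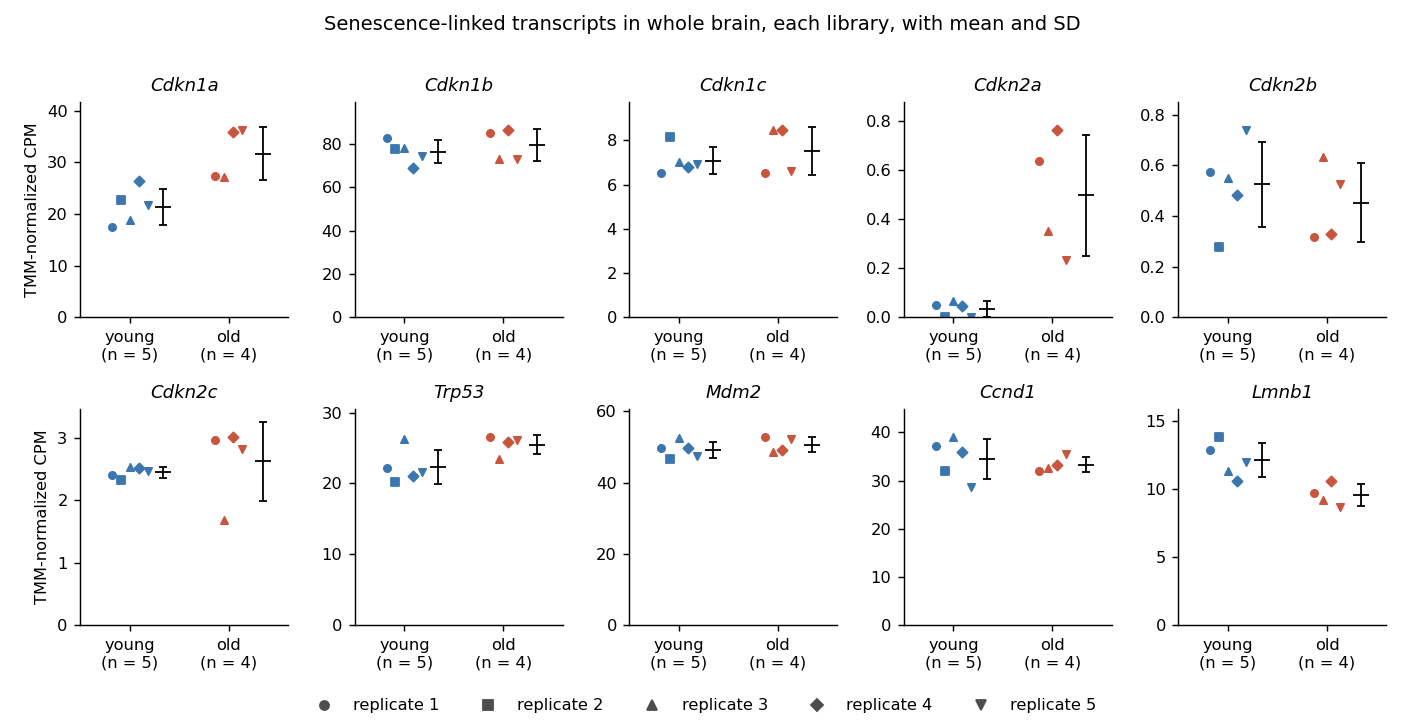
Level of each member in every library, as TMM-normalized CPM on the vertical axis from 0, with young mice (n = 5) in blue and old mice (n = 4) in red. The marker shape gives the replicate number, and the bar to the right of each group gives its mean and SD. The groups do not overlap for Cdkn1a, Cdkn2a and Lmnb1, and they overlap for the other 7 genes.

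Cdkn1a encodes p21, which binds cyclin-CDK complexes and PCNA and is the best known target of p53. Its gene lies at chr17:29090976-29100727 (GRCm38, plus strand). In the young mice 1 to 5 it was at 17.5, 22.8, 18.8, 26.3 and 21.7 CPM. In old mice 1, 3, 4 and 5 it was at 27.3, 27.2, 35.8 and 36.3 CPM. The 4 old mice thus lay above all 5 young mice, which was the case for 1202 tested genes (6.5%), and young replicate 4 was the young mouse nearest to the old ones. The mean was 21.4 ± 3.45 CPM in the young (SD, n = 5) and 31.7 ± 5.11 CPM in the old mice (SD, n = 4), a fold of 1.47. The log2 fold change was 0.56 (SE 0.14, 95% interval 0.25 to 0.87, edgeR adjusted p = 0.03), and a two-sided exact permutation test of the mean CPM gave p = 0.0159.

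The Cdkn1a call depended on single libraries. It was kept in 4 of 9 fits that left out 1 mouse. It was lost without young replicate 2 (edgeR adjusted p = 0.053), young replicate 3 (0.069), young replicate 5 (0.068), old replicate 4 (0.07) or old replicate 5 (0.069), with log2 fold changes between 0.49 and 0.65 over all 9 fits. Without both libraries that stood apart, it was 0.58 (edgeR adjusted p = 0.012). On the TPM scale it was 0.39 and not called (limma, adjusted p = 0.24), and there the median of all genes shifted by -0.14. Of the 100-base windows of its transcripts, 5.33% were shared with other genes, mostly with AC167363.2, which overlaps it by 273 exon bases on the opposite strand.

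The genes whose log2 CPM followed Cdkn1a most closely over the 9 libraries were Sf3a1, a splicing factor subunit (Pearson r = 0.967), Fn1, the gene of fibronectin (0.965), and Npc2, which carries cholesterol out of lysosomes (0.959). Of these, Fn1 (log2 fold change 0.34, adjusted p = 0.036) and Npc2 (0.18, adjusted p = 0.018) rose with age, and Sf3a1 was at 0.08 (adjusted p = 0.16). These correlations describe 9 libraries that also differ in age and are given without a test.

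Cdkn2a lies at chr4:89274471-89294653 (GRCm38, minus strand) and yields p16, an inhibitor of CDK4 and CDK6, and p19Arf, which restrains MDM2, from separate first exons. Counts per gene do not tell these transcripts apart. The young mice 1 to 5 had 1, 0, 1, 1 and 0 counts. Old mice 1, 3, 4 and 5 had 12, 5, 14 and 4 counts. Every old mouse was above every young mouse. Among the 6143 genes that failed the count filter but had at least 15 counts in all, this was the case for 122 (1.99%). The mean was 0.0339 ± 0.0318 CPM in the young (SD, n = 5) and 0.498 ± 0.246 CPM in the old mice (SD, n = 4).

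The difference in mean CPM for Cdkn2a was 0.464, with p = 0.00794 by a two-sided exact permutation test, the smallest value that the splits of 9 mice allow. Summed over mice, 3 of 88946791 counts in the young and 35 of 68407818 counts in the old fell on Cdkn2a, a ratio of 15.2 with an exact 95% interval of 4.78 to 77.1 that covers counting error only. The highest old mouse was old replicate 4. Leaving out each mouse in turn gave differences of 0.374 to 0.551 CPM (exact permutation p between 0.0179 and 0.0286). These p-values were again the smallest that the splits allow. They rest on every old mouse being above every young mouse and add no support beyond that. Without both libraries that stood apart the difference was 0.378. When all 35028 genes with a count were tested, the log2 fold change was 3.64 (SE 0.67, edgeR adjusted p = 4.09e-06). DESeq2 gave 3.89 (SE 1.01, unadjusted p = 0.000122) and set no adjusted p for this gene. At its highest the gene had 14 counts in a library, so the size of the difference is poorly known. The wide interval above leaves out the spread between mice.

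The other inhibitors of CDK4 and CDK6 did not separate the ages. Cdkn2b (p15), the neighbour of Cdkn2a on chromosome 4, had 5 to 12 counts in the young and 6 to 9 in the old mice. Its log2 fold change was -0.23 with an interval of -0.99 to 0.52 (edgeR adjusted p = 0.73). Its summed ratio of old over young was 0.848 (exact interval 0.517 to 1.37), an interval wholly below that for Cdkn2a. Both intervals cover counting error only and leave out the spread between mice. Cdkn2c (p18) was at 2.40, 2.32, 2.54, 2.51 and 2.47 CPM in young mice 1 to 5 and at 2.97, 1.69, 3.01 and 2.82 CPM in old mice 1, 3, 4 and 5. Thus 3 old mice were above all young mice, while old replicate 3 was below them all. The log2 fold change was 0.11 (interval -0.25 to 0.48, edgeR adjusted p = 0.73), and 0.26 without old replicate 3 (adjusted p = 0.32).

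Nor did the other inhibitors of the p21 family pass the test. Cdkn1b, the gene of p27, which keeps differentiated cells from dividing, had the highest level per length of the 10 genes. It ranged from 68.8 to 82.8 CPM in the young and from 73.0 to 86.6 CPM in the old mice (log2 fold change 0.06, interval -0.07 to 0.19, edgeR adjusted p = 0.61). Cdkn1c (p57), an imprinted gene, ranged from 6.53 to 8.13 CPM in the young and from 6.53 to 8.48 CPM in the old mice (0.08, interval -0.15 to 0.32, edgeR adjusted p = 0.69). Its antisense neighbour Gm44732 covers 625 of its exon bases, so its reads are partly uncertain. The intervals of these 2 genes exclude a rise of the size estimated for Cdkn1a.

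Trp53, the gene of p53 itself (chr11:69580359-69591873, plus strand), was at 22.2, 20.2, 26.3, 21.1 and 21.6 CPM in young mice 1 to 5. It was at 26.5, 23.5, 25.8 and 26.1 CPM in old mice 1, 3, 4 and 5. All old mice were above the young median, and only young replicate 3 reached the old range. The log2 fold change of 0.20 (SE 0.071, interval 0.05 to 0.35) did not pass (edgeR adjusted p = 0.082) and did so without young replicate 3 (0.26, adjusted p = 0.017). On the TPM scale it was 0.03 (limma, adjusted p = 0.94). Mdm2, the ubiquitin ligase that degrades p53 and is itself induced by it, ranged from 46.7 to 52.4 CPM in the young and from 48.5 to 52.7 CPM in the old mice. Its log2 fold change of 0.04 had the narrowest interval of the 9 tested members, -0.06 to 0.14 (edgeR adjusted p = 0.61).

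Ccnd1 encodes cyclin D1, the partner of CDK4 and CDK6 that drives cells out of G1. It ranged from 28.7 to 39.0 CPM in the young and from 31.9 to 35.6 CPM in the old mice. The old values lay within the young range, and the log2 fold change was -0.05 (interval -0.21 to 0.11, edgeR adjusted p = 0.72). The opposite-strand gene LTO1 shares 1100 exon bases with it, and 19.6% of its 100-base windows were shared with that gene.

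Lmnb1, the gene of lamin B1, lies on chromosome 18 at chr18:56707813-56753424 (GRCm38, plus strand). It was at 12.9, 13.8, 11.3, 10.6 and 12 CPM in young mice 1 to 5 and at 9.72, 9.17, 10.6 and 8.69 CPM in old mice 1, 3, 4 and 5. All old mice were below all young mice, as were 1125 tested genes (6.08%). The separation was narrow, since young replicate 4 and old replicate 4 met at log2 CPM values of 3.43 and 3.42. The mean was 12.1 ± 1.26 CPM in the young (SD, n = 5) and 9.55 ± 0.827 CPM in the old mice (SD, n = 4), a fold of 0.789. The log2 fold change was -0.34 (SE 0.094, interval -0.54 to -0.14, edgeR adjusted p = 0.025), and the two-sided exact permutation p was 0.0159.

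Lmnb1 kept its call in 5 of 9 fits that left out 1 mouse. It lost the call without young replicate 1 (edgeR adjusted p = 0.066), young replicate 2 (0.063), old replicate 3 (0.06) or old replicate 5 (0.082). Without both libraries that stood apart, the log2 fold change was -0.45 (edgeR adjusted p = 0.0094). On the TPM scales it was -0.46 and -0.50 and not called (limma, adjusted p = 0.16 and 0.14). The genes that followed Lmnb1 most closely over the 9 libraries were Cyb561d2 (Pearson r = 0.981), Gm16701 (0.969) and Atp8b3 (0.957), given as a description only. Of these, Gm16701 fell with age (log2 fold change -0.33, adjusted p = 0.039). Cyb561d2 was at -0.21 (adjusted p = 0.15) and Atp8b3 at -0.97 (adjusted p = 0.069).

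**Figure D2:**
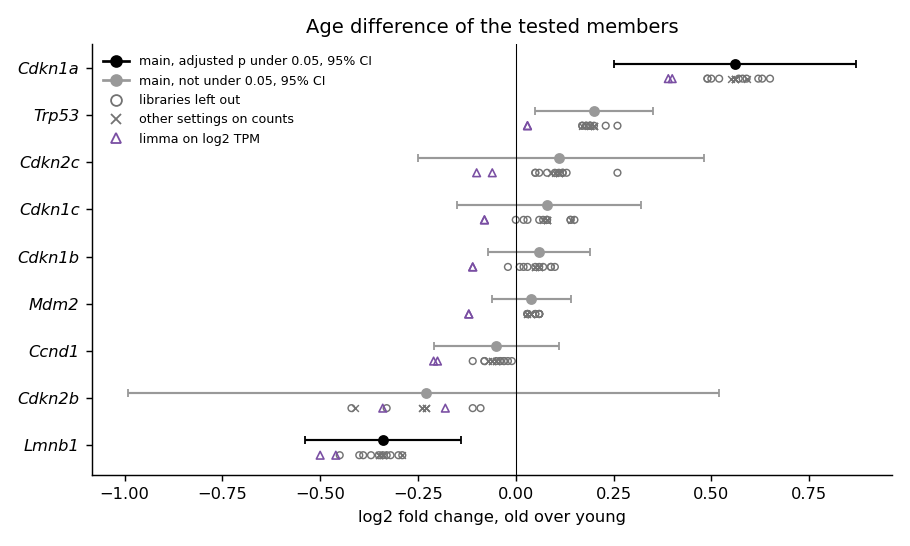
Log2 fold change of old over young mice for the 9 tested members on the horizontal axis, with the main estimate and its 95% interval above the values of each alternative. Black estimates have an adjusted p under 0.05, open circles leave out libraries, crosses use other settings on the counts and triangles use log2 TPM. Cdkn1a stays at or above 0.39 and Lmnb1 at or below -0.29 in every setting drawn.

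Levels of different genes can be compared only per gene length, for which the TPM values served. Over the 9 libraries the median was 42.9 TPM for Cdkn1b, 26.3 for Cdkn1a, 23.6 for Mdm2, 17.1 for Ccnd1, 14.4 for Trp53, 8.51 for Cdkn1c, 8.31 for Lmnb1, 2.43 for Cdkn2c, 0.922 for Cdkn2b and 0.2 for Cdkn2a. By this median Cdkn1b, the gene of p27, was highest, and Cdkn2c, Cdkn2b and Cdkn2a were the lowest of the 10. Of the 9 pairs of neighbours, 5 kept their order in every library. Cdkn1b exceeded Cdkn1a in 5 of 5 young and 3 of 4 old mice. Cdkn1a exceeded Mdm2 in 3 of 5 young and 4 of 4 old mice. Lmnb1 exceeded Cdkn1c in 5 of 5 young and 1 of 4 old mice. Cdkn2b exceeded Cdkn2a in 5 of 5 young and 2 of 4 old mice, so the neighbours of these 4 pairs do not differ beyond their spread over all libraries. The TPM scale carried an extra source of spread, since the RNA Gm23935 alone took between 8.68% and 39.5% of a library's TPM.

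**Figure D3:**
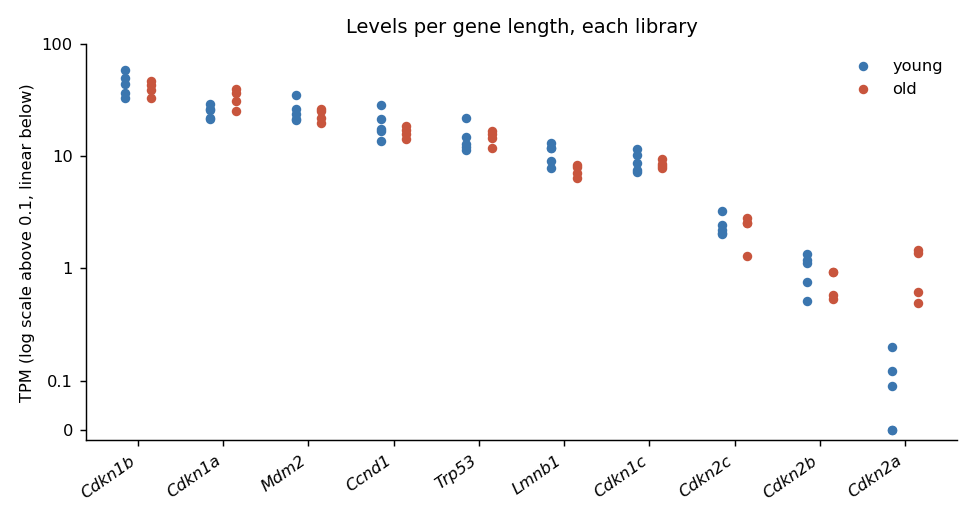
TPM of each member in every library (log scale above 0.1, linear below), ordered by level, with young mice in blue and old mice in red. Cdkn1b is highest and Cdkn2a lowest, with 2 young libraries at 0 for Cdkn2a and old libraries between 0.1 and 2 TPM.

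Around the members, 7 lists of genes of the same pathways were read from the same fit. They held 28 called genes, all of which kept their direction and 16 of which kept their call in each of the 9 fits without a mouse, among them 2 that only the old mice brought past the low-count filter. The first holds 16 genes of the G1 machinery, of which 2 rose and 1 fell (3 of 16 called, beside 11.0% of all tested genes), with a median log2 fold change of 0.02 against 0.0 for all genes. Ccnd2, the most abundant of them, fell from 66.7 ± 4.04 to 57.3 ± 3.48 CPM (log2 fold change -0.22, adjusted p = 0.012). Ccnd3 rose from 27.4 ± 1.9 to 32.4 ± 3.61 CPM (0.24, adjusted p = 0.037). The D-type cyclins, which share the CDK4 and CDK6 kinases, therefore went in different directions, with Ccnd1 not called. Rbl2, the gene of the retinoblastoma relative p130 that is bound to E2F in resting cells, rose from 50.8 ± 0.861 to 56.4 ± 2.68 CPM (0.15, adjusted p = 0.027). Ccnd2 kept its call in 9 of the 9 fits without a mouse, Ccnd3 in 4 and Rbl2 in 5, and without young replicate 1 or old replicate 4 the list had 1 called gene. Reads of these genes can include those of opposite-strand neighbours that share exon bases with them, Gm43126 and an antisense RNA for Ccnd2, Bysl for Ccnd3 and Aktip and Gm45464 for Rbl2.

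Of 24 p53 target genes, 1 rose and 2 fell (12.5% called, beside 11.0% of all tested genes). The median log2 fold change was 0.0, with 12 genes above and 12 below 0. The 1 that rose was Eda2r, a receptor of the TNF family, with 4, 4, 5, 9 and 4 counts in young mice 1 to 5 and 12, 14, 19 and 12 counts in old mice 1, 3, 4 and 5. It passed the low-count filter only through the old mice, so its call is no support for a difference, and DESeq2 set no adjusted p for it. Btg2, an antiproliferative gene, fell from 20.5 ± 3.36 to 14.6 ± 0.826 CPM (-0.49, adjusted p = 0.0099). Zmat3, an RNA-binding target of p53, fell from 121 ± 6.93 to 109 ± 4.99 CPM (-0.15, adjusted p = 0.046). Plk2, the most abundant of the list, was at 0.14 (adjusted p = 0.2). Btg2 kept its call in all 9 fits without a mouse, and Zmat3 did so in 2.

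Among 14 regulators of p53, 3 rose and 0 fell by edgeR (21.4% called, beside 11.0% of all tested genes, median 0.09). At an unadjusted p under 0.05 the counts were also 3 and 0, and DESeq2 gave 3 and 0. Crebbp, an acetyltransferase that modifies p53, rose from 117 ± 2.3 to 134 ± 6.29 CPM (0.19, adjusted p = 0.0043). Rpl5 (0.15, adjusted p = 0.013) and Rpl11 (0.13, adjusted p = 0.035), ribosomal proteins that can bind MDM2, also rose. Usp7, a deubiquitinase of MDM2 and p53 and the most abundant of the list, was at 0.06 (adjusted p = 0.35). Crebbp and Rpl5 kept their calls in all 9 fits without a mouse, and Rpl11 did so in 3.

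Of 20 genes of DNA replication and mitosis, 16 were tested. By edgeR, 2 rose and 0 fell (12.5% called, beside 11.0% of all tested genes). The counts were 5 and 1 at an unadjusted p under 0.05, and 2 and 0 by DESeq2. Pcna, the sliding clamp to which p21 binds, rose from 33.5 ± 1.08 to 39.7 ± 2.34 CPM (0.25, adjusted p = 0.0047). Mcm3, a subunit of the replicative helicase, rose from 2.41 ± 0.397 to 3.58 ± 0.653 CPM (0.56, adjusted p = 0.04). Pcna kept its call in all 9 fits without a mouse. Mcm3 did so in 3, and lost it without young replicate 1, 3 or 4 or old replicate 3, 4 or 5. The summed level of the list was 92.8 to 99.4 CPM in the young mice, 134 CPM in old replicate 4 and 99.5 to 103 CPM in the other old mice. The marker Mki67 was at 30 to 38 counts in old replicates 1, 3 and 5 and at 37 to 48 counts in the young mice, and Top2a was at 2 to 11 counts in those old mice against 15 to 42 in the young. In old replicate 4 they had 157 and 67 counts. Mki67 and Top2a were chosen after their values were seen, and neither was called (adjusted p = 0.53 and 0.79). This same library had the highest Cdkn2a and the second highest Cdkn1a level, and the values of both without it are given above.

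Among 14 genes of the nuclear lamina and envelope, 3 rose and 0 fell by edgeR (21.4% called, beside 11.0% of all tested genes). Those that rose went opposite to Lmnb1. The counts were 6 and 0 at an unadjusted p under 0.05, and 3 and 0 by DESeq2. Lbr, the lamin B receptor, rose from 17.7 ± 1.61 to 21.1 ± 1.51 CPM (0.26, adjusted p = 0.036). Tmpo, which encodes the LAP2 proteins, rose from 45.3 ± 1.36 to 52.9 ± 2.43 CPM (0.23, adjusted p = 0.0037). Sun2, a link between nucleus and cytoskeleton, rose from 65.8 ± 2.24 to 76.8 ± 5.16 CPM (0.22, adjusted p = 0.0055). Syne1, the most abundant, was at -0.04 (adjusted p = 0.65). Tmpo and Sun2 kept their calls in all 9 fits without a mouse, and Lbr did so in 3.

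The Polycomb list, whose complexes keep the Cdkn2a locus silent in dividing cells, had 9 of 15 genes called (60.0%, beside 11.0% of all tested genes). The called genes were 4 higher and 5 lower in the old mice, and on both TPM scales 1 gene was called. Cbx8, a chromobox subunit, lay lower in every old mouse than in every young one and fell from 12.4 ± 0.707 to 7.45 ± 0.672 CPM (log2 fold change -0.73, SE 0.088, adjusted p = 6e-05). Cbx2 (-0.54, adjusted p = 0.04) and Cbx6, the most abundant (-0.18, adjusted p = 0.0037), fell as well. Cbx7 (0.24, adjusted p = 0.023) and Bmi1 (0.24, adjusted p = 0.0096) rose. The count called was 4 without young replicate 3 and 5 without young replicate 1, old replicate 4, old replicate 5 or both libraries that stood apart. Cbx8, Cbx6 and Bmi1 kept their calls in all 9 fits without a mouse, Cbx7 in 6 and Cbx2 in 3. Cbx6 shares 563 exon bases with Npcd, a protein-coding gene on the same strand, so its reads are partly uncertain. Chromobox subunits thus changed in both directions.

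Of 28 genes of the secretory phenotype, 18 were tested, of which 4 rose and 1 fell. These were 27.8% of the list's tested genes, beside 11.0% of all tested genes, and the list's median was 0.24. Mmp12, a macrophage elastase, had 13 to 26 counts in the old mice, 11 in young replicate 4 and 0 or 1 in the other young mice. It is among the 4 genes that rose but passed the low-count filter only through the old mice, so its call is no support for a difference, and DESeq2 set no adjusted p for it. Igfbp7 rose from 20.0 ± 1.57 to 28.2 ± 5.18 CPM (0.50, adjusted p = 0.0089). Mmp14, a membrane-bound metalloprotease, fell from 21.0 ± 3.16 to 15.2 ± 0.763 CPM (-0.46, adjusted p = 0.0073). Igfbp7 and Mmp14 kept their calls in all 9 fits without a mouse. Timp2, the most abundant, was at 0.00 (adjusted p = 1.0).

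The count of called genes in this list was 8 without young replicate 4, 9 when every gene with a count was tested and 3 on both TPM scales. The 10 genes that failed the filter, cytokines and chemokines among them, had few counts. Of these, Il6 had at most 2 counts in any library, Il1b at most 7 and Tnf at most 5. Cxcl1 had 51 counts in young replicate 4 and 1 to 11 elsewhere. In 3 of the 10, chosen after their values were seen, all old mice were above all young mice in CPM, beside 1.99% of the low-count genes with at least 15 counts. These were Ccl2 (2 to 5 counts in the young, 6 to 8 in the old), Ccl5 (0 to 6 and 5 to 12) and Ccl8 (0 to 2 and 4 to 13). For Ccl5 the ranges of raw counts overlap and those of CPM do not. In the other 7 the CPM ranges of the ages overlapped, and whether a change could be detected at these counts was not tested.

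**Figure D4:**
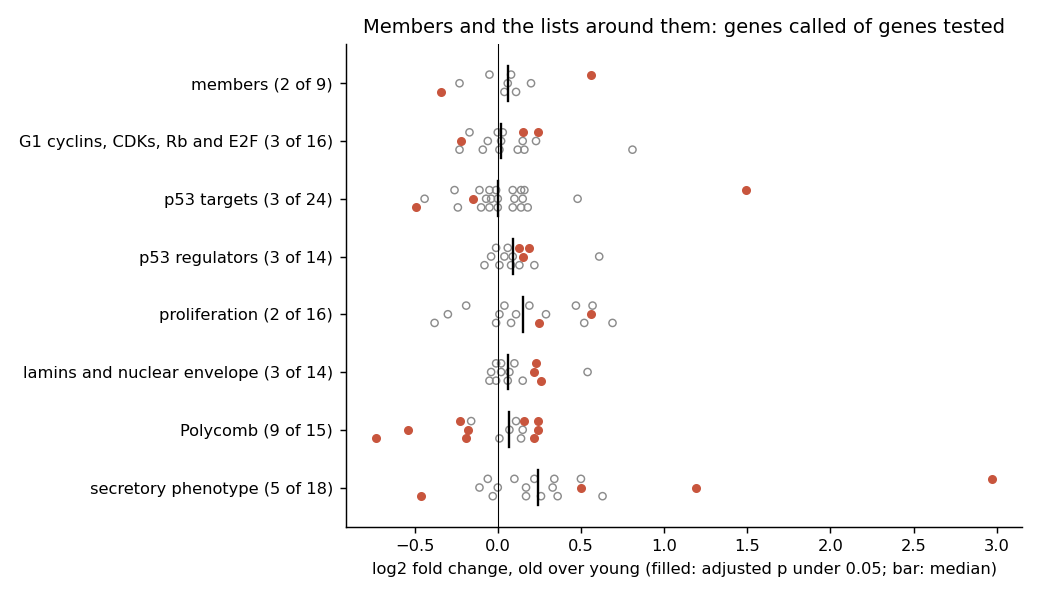
Log2 fold change of old over young mice for each tested gene of the members and of the 7 lists, 1 row per list. Filled points have an adjusted p under 0.05 after rounding, the vertical bar is the list's median, and the numbers in brackets are genes called of genes tested. In the secretory row, a called gene whose adjusted p rounds to 0.05 is drawn open. Eda2r and Mmp12, the points farthest to the right in their rows, passed the low-count filter only through the old mice. The called genes lie on both sides of 0 for the members, the G1 genes, the p53 targets, the Polycomb genes and the secretory genes.

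Other named list genes share exon bases with opposite-strand genes too, Rpl5 with Fam69a (953 bases), Lbr with Dnah14 (440), Tmpo with Gm26765 (244), Mmp12 with Mmp1b (157), Sun2 with Gm16575 (147), Cbx7 with Apobec3 (100) and Igfbp7 with Polr2b (85), as does the marker Gpr17 with Lims2 (188), so their reads are partly uncertain.

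Markers of several cell types also differed between the ages in these whole-brain samples. The summed level of 6 endothelial genes was 220 to 231 CPM at 3 months and 254 to 293 CPM at 33 months. Of these, 4 were called, all higher, where 11.0% of all tested genes were called in either direction. Cldn5 was the 1 of the 6 below 0 (-0.14, edgeR adjusted p = 0.4). The sum of 4 red blood cell genes ranged from 79.0 to 103 CPM at 3 months and from 117 to 372 CPM at 33 months. The sum of 6 genes of oligodendrocyte precursors was 145 to 153 CPM at 3 months and 128 to 134 CPM at 33 months. Of these 6 genes, 2 were called, both lower, among them Gpr17 (-0.83, edgeR adjusted p = 1.3e-06). Gpr17 alone went from 38.8 to 21.9 CPM. By contrast, 3 of the 6 had a log2 fold change above 0, among them Pdgfra (0.05, edgeR adjusted p = 0.61). The sums of 6 microglial genes (182 to 262 and 249 to 270 CPM) and of 6 genes of neuroblasts and progenitors (79.7 to 105 and 60.7 to 116 CPM) overlapped. Those of 6 astrocyte, 6 oligodendrocyte and 6 neuron genes, of pericytes, choroid plexus, ependyma and meningeal fibroblasts overlapped too. The microglial overlap came from young replicate 4 alone, at 262 CPM, beside 182 to 197 CPM in the other young mice. All 6 microglial genes had a log2 fold change above 0, and 1 was called, Tmem119 (0.53, edgeR adjusted p = 0.00037). Young replicate 4 alone also made the astrocyte overlap, at 3980 CPM. The other young mice had 3340 to 3540 CPM and the old mice 3670 to 3930 CPM. In this sum Gfap went from 268 ± 138 to 566 ± 91.2 CPM (edgeR adjusted p = 0.091). None of the 6 astrocyte genes was called, and their median log2 fold change was 0.03. Of the 6, 4 were above 0 and 2 below, Aqp4 (-0.13) and Gja1 (-0.12). The part of these cell types in the differences of Cdkn1a, Cdkn2a and Lmnb1 was not tested.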

How the data were processed

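RNA of whole brains from 5 young (3 months) and 4 old (33 months) mice was analysed from 2 deposited tables. The authors trimmed reads with Trimmomatic, aligned them to GRCm38 with STAR and counted unique reads on exons with featureCounts, and deposited these raw counts per gene. The authors also deposited TPM values, and the gene lengths behind them are not given in the sources used here. The submitters' processing notes name mm10 and DESeq2. Strand-specific counting is stated only for strand-specific libraries, so opposite-strand overlaps of members and named list genes are given. Each table held 1 column that matched no sample in the list used and was left out. The deposited normalized counts were not used.

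Genes were filtered with filterByExpr (minimum count 10, total 15), scaled by TMM and tested with edgeR 4.0.16 (glmQLFit with a robust prior, glmQLFTest, R 4.3.3) with Benjamini-Hochberg adjustment over 18492 genes. The robust prior was chosen after the data were seen, and the fit without it is an alternative. Log2 CPM used a prior count of 2. Cdkn2a was tested by a two-sided exact permutation test of mean CPM over the 9 libraries. Alternatives were DESeq2 1.42.0 (size factors and Wald test), upper quartile factors, other filters, limma 3.58.1 on log2(TPM + 1) and log2(TPM + 0.1), an adjusted p under 0.01, a replicate block and each library left out. Leaving out young replicate 4 and old replicate 4 together was added after the data were seen. Symbols and positions came from GENCODE for GRCm38, with 345 of 49315 IDs unmatched. The fit was checked on simulated counts.

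The members and gene lists were chosen with earlier results of these data known, so they are not independent of them. Named genes were all members, the called genes of each list (at most 4, by size of change), its most abundant gene, and the 3 genes most correlated with each called member. A gene under this rule is not reported here. Each library held 14229259 to 21150439 counts, and libraries of an age differed by more than sampling noise (chi-square per degree of freedom at least 3.71), so each was 1 replicate. Intervals on counts cover counting error only. The correlations of same-numbered libraries ranged from -0.118 to 0.17, so the numbers were not taken as pairs.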

Additional observations from a re-analysis of the deposited data

Results flagged for a closer look

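For Cdkn2c in the old mice, old replicate 3 lay far from the other 3. Its level was 1.69 CPM against 2.82 to 3.01 CPM, and on the log2 scale its gap to the nearest other library was 0.884 of the group's whole range, above Dixon's limit for 4 samples. This was the only such case among 20 combinations of gene and age group, of which chance gives about 1. The cause was not tested.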

How the results depend on the processing

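Cdkn1a and Lmnb1 kept their direction in all fits run, while their calls did not survive every library left out. The members called numbered 0 to 2 without single libraries (0 without young replicate 2 or old replicate 5), 1 with the replicate block and 0 on log2(TPM + 1), on log2(TPM + 0.1) and at an adjusted p under 0.01. When every gene with a count was tested, 3 members were called. Of these, 1 was past both thresholds, Cdkn2a (log2 fold change 3.64), with Cdkn1a at 0.55. With the replicate block and without both libraries that stood apart, the 1 member past both thresholds was Cdkn1a (0.59 and, rounded, 0.58). Without single libraries there were 0 to 1 such members (Cdkn1a without young replicate 4, old replicate 1 or old replicate 3). Over all genes, 594 were called on log2(TPM + 1), 600 on log2(TPM + 0.1) and 873 at an adjusted p under 0.01, and 1516 to 2034 without single libraries. Of the list genes, 28 were called in the main analysis, 5 on either TPM scale, 13 at an adjusted p under 0.01 and 18 to 26 without single libraries.

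Members that were not called turned their sign on log2(TPM + 1) and log2(TPM + 0.1), where the median of all genes was -0.14 and -0.16. These were Cdkn1b (-0.11 and -0.11), Cdkn1c (-0.08 and -0.08), Cdkn2c (-0.06 and -0.10) and Mdm2 (-0.12 and -0.12). Cdkn1b was also at -0.02 without both libraries that stood apart. With the replicate block, 1828 genes were called, and among the members Lmnb1 lost its call (-0.29, adjusted p = 0.081) while Cdkn1a kept its own. The numbers do not pair the mice, and 2 of 4 correlated best with their own number. The difference of Cdkn2a was 0.374 to 0.551 CPM without single libraries. Low counts limit what can be read from Cdkn2a, Cdkn2b and the 10 secretory genes under the filter. The cause of these shifts was not tested.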
